A study of Mus musculus with 16 samples.

Results

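The genes described here are 10 markers and regulators of the naive pluripotent state in mouse embryonic stem (ES) cells: Klf2, Klf4, Klf5, Zfp42 (also called Rex1), Dppa3 (also called Stella), Dppa5a, Tcl1, Esrrb, Tbx3 and Tfcp2l1. They were chosen by name, with earlier results of these data known. Every probe set of the array annotated to 1 of them was taken. This gave 16 probe sets of the 22626 on the array that are not controls, and 10 genes of 12393 with a single symbol. Of these, 14 probe sets passed the filter on low values, at least 1 for each of the 10 genes. The remaining 2, both annotated to Tfcp2l1 (1460714_at and 1460715_x_at), stayed between 0.208 and 8.03 intensity units on all 16 arrays, below the filter at 11.9, and were not tested.

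The study compared ES cells that lack Unr, an RNA-binding protein with cold shock domains, with wild-type ES cells. The 6 groups were unr-/- cells (KO) and unr+/+ cells (WT), each in the growing state (3 arrays per genotype), 2 h after gamma irradiation (3 arrays per genotype, with a dose of 8 Gy in the labels) and 24 h after gamma irradiation (2 arrays per genotype, with no dose in the labels). Per the series' design, the lines were derived from single blastocysts of a cross between heterozygous mice. The labels give a mixed background of 129 and C56Bl/6, spelled so. All cells, KO and WT alike, were grown with LIF (1000 U/ml) and 15% serum on fibroblast feeders that had been treated with mitomycin, and were left for 1 h on gelatin before lysis to take the feeders away. The labels do not say how many lines stand behind a group or whether replicates were separate cultures, so a p-value covers just the spread among these arrays, technical or not. No unirradiated cells were kept alongside for 2 h or 24 h, so irradiation and time in culture cannot be told apart.

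Naive pluripotency is the state of the preimplantation epiblast, which mouse ES cells keep in culture when LIF signals through the kinase JAK and the transcription factor STAT3. STAT3 raises Klf4 and Tfcp2l1, signalling through PI3 kinase and Akt raises Tbx3, and Esrrb acts downstream of Nanog and of Wnt signalling. Klf2, Klf4 and Klf5 are zinc finger factors that bind CACCC and GC boxes and can stand in for each other in self-renewal, while Tcl1 is a cofactor that strengthens Akt. Zfp42 and Dppa3 are lost as cells move toward the primed, postimplantation state, and their levels differ from cell to cell in serum cultures.

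The values are deposited array intensities, scaled so that the mean of each array after trimming was 100, and changes are given as log2 of the intensity plus 16. Tests are from limma with Benjamini-Hochberg adjustment over the 17736 probe sets tested, with an adjusted p under 0.05 called a change. The arrays were alike in most respects: array medians lay between 26.7 and 37.4, ratios of 3' to 5' probe sets between 1.02 and 1.28 for actin and between 0.743 and 0.882 for Gapdh, and pairwise correlations of log2 values between 0.953 and 0.987. Of the 16 arrays 2 stood apart by signal from 18S ribosomal RNA above 300, namely KO 2 h replicate 2 (2942) and WT growing replicate 1 (976), against a lowest value of 41.3. The instrument files place the arrays in 4 hybridisation runs. Run 4, on a second day, held replicate 3 of the growing and 2 h groups of each genotype. Genotype was spread unevenly over runs 1 and 3. Run 1 held replicate 1 of every WT group and of KO growing. Run 3 held replicate 2 of every KO group and of WT 24 h. The main fit takes no account of run, so its differences between KO and WT are partly mixed with run. All 6 ES cell markers were measured and high on every array, with Pou5f1, which encodes Oct4, between 873 and 1625. The summed intensity of 7 measured trophectoderm markers was above 1000 on 4 arrays and 313 to 683 on the other 12. The 4 were KO 24 h replicate 2 (1326) and replicate 2 of the WT growing (1541), WT 2 h (1641) and WT 24 h (2680) groups. Over all arrays Krt8 ran from 75.1 to 1155 and Krt18 from 62.7 to 1202. Cdx2, Elf5, Hand1 and Eomes reached at most 60.2 and Tfap2c 243, so the high sums rest mainly on Krt8 and Krt18. Krt18 is also on the list of priming genes used below. High trophectoderm signal thus names a high sum here and does not show that trophectoderm cells were present. Results are also given without these 4 arrays, a choice made after the values were seen, where that changed a call. That omission leaves 1 array per genotype at 24 h, which also lowers the precision of the averages over states. The summed intensity of 18 feeder fibroblast markers was 2834 to 4026 on KO growing arrays and 2119 to 5129 on WT growing arrays. Over all arrays the brightest of these were Vim (648 to 1590) and Fn1 (724 to 1414). Each value is a mean over a culture, and fewer cells of a kind cannot be told apart from less RNA per cell.

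For 4 naive state probe sets there was a difference between KO and WT cells with the 3 states averaged: Tcl1, Dppa3 and Klf2 were lower in KO cells and Klf4 was higher. The averaged differences of Esrrb and Dppa5a had 95% confidence intervals within -0.28 and 0.28. The 4 called probe sets are 28.6% of the 14 tested, against 4.13% of all 17736 probe sets. The genes were chosen with earlier results of these data known, so the higher share is not evidence about the list. The median over the 10 genes, each taken at its brightest tested probe set, was -0.01, against 0.01 over all 10252 genes tested, so the list had no common direction. By state, 1 of the 14 passed in growing cells (Tcl1, lower), against a background of 0.248%. None of the 14 passed at 2 h, against a background of 0.395%, and none passed at 24 h, against 0.062%. At 2 h 6 of the 14 had an unadjusted limma p under 0.05, against 2636 of all 17736 probe sets. At 24 h 2 of the 14 had one, against 1701 of all 17736. The average over states uses the same arrays as the 3 single comparisons and is not separate evidence.

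**Figure D1:**
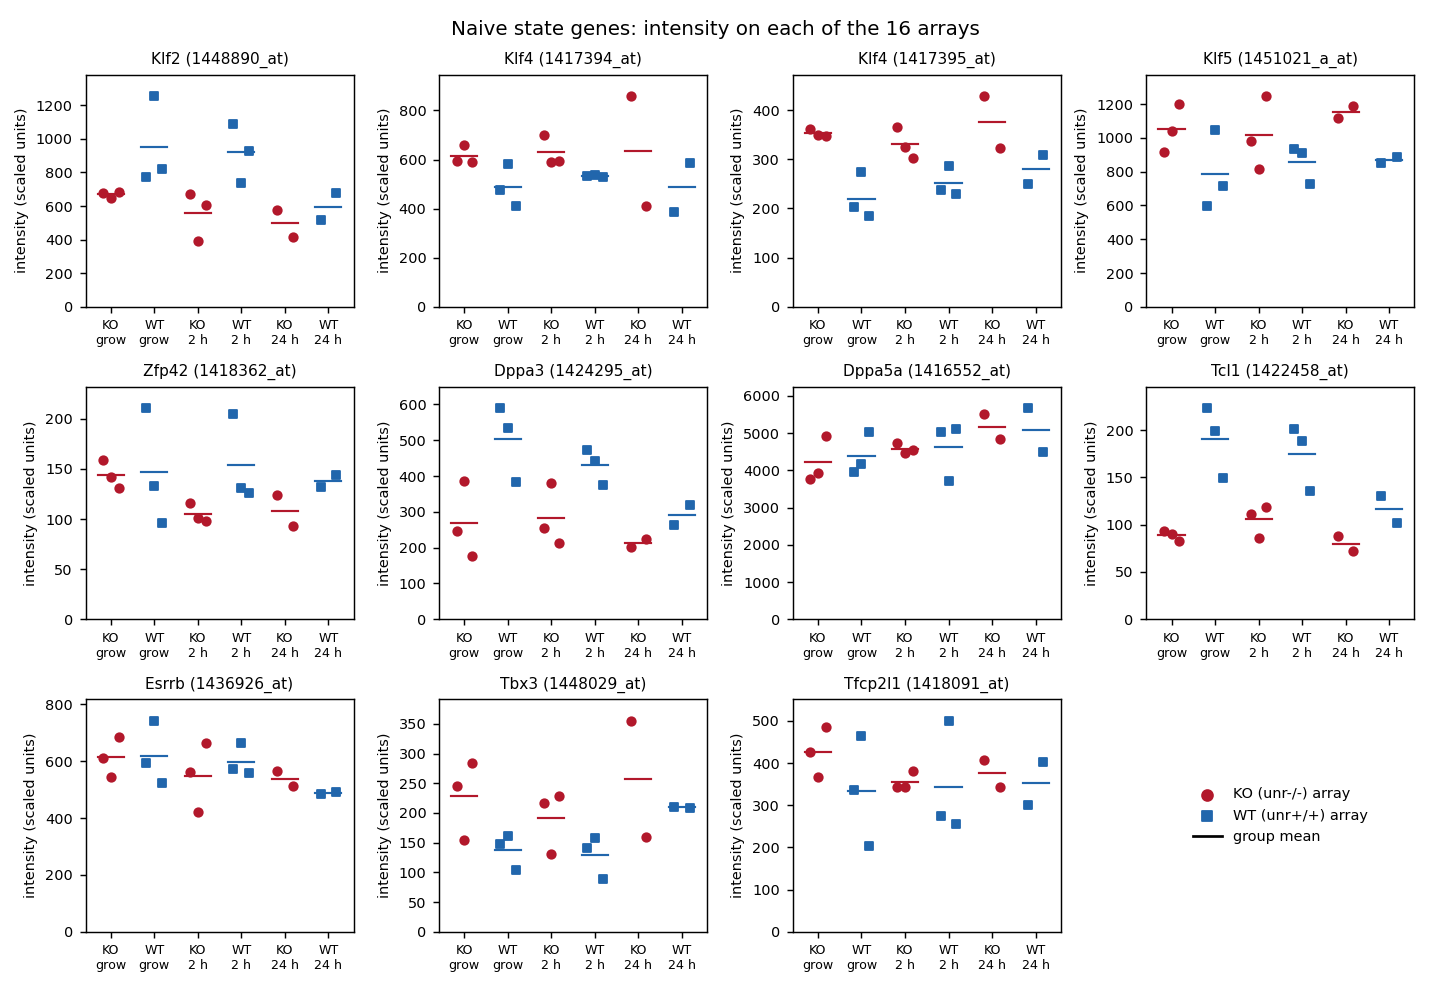
Intensity (scaled units, linear axes from 0) of the naive state genes on each of the 16 arrays, 1 panel per probe set (the brightest tested one per gene, and both of Klf4), with a bar at each group mean. Group means of Tcl1 and Dppa3 lie lower in KO than in WT cells in each state, and those of Klf4 (1417395_at) lie higher. Dppa3 arrays overlap between genotypes in growing cells and at 2 h, and Dppa5a arrays overlap in each state.

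Tcl1 (1422458_at), the Akt cofactor, had the largest averaged difference between genotypes among the 14. In growing cells its intensities were 92.9, 89.6 and 83.2 in KO cells, against 223, 199 and 149 in WT cells. At 2 h they were 112, 85.9 and 119 in KO cells, against 201, 188 and 136 in WT cells. At 24 h they were 87.6 and 72.2 in KO cells, against 131 and 101 in WT cells. In each of the 3 states every KO array lay below every WT array of that state, although the highest KO array (119, at 2 h) lay above the lowest WT array (101, at 24 h). The mean in growing cells was 88.6 ± 4.96 in KO cells and 191 ± 37.9 in WT cells (SD, n = 3 each), a log2 change of -0.97 ± 0.17 (SE; limma adjusted p = 0.0177). It was -0.65 ± 0.17 at 2 h (adjusted p = 0.0975), and the 24 h change was -0.46 ± 0.21 (adjusted p = 0.505). Averaged over states it was -0.69 ± 0.11 (adjusted p = 0.001). Within single hybridisation runs, with 1 array per genotype, the differences in growing cells were -1.13 and -0.73, those at 2 h -0.67 and -0.17, and that at 24 h -0.41. The averaged difference passed in all 26 alternative analyses, with adjusted p up to 0.00549. The call in growing cells was lost without the second hybridisation day (adjusted p = 0.0703), without the 2 arrays of high 18S signal (0.0836), and on leaving out WT growing replicate 1 or 2, or any 1 of the 3 KO growing replicates, with limma adjusted p between 0.0521 and 0.104. It was also lost without the 4 arrays of high trophectoderm signal (-0.93, limma adjusted p = 0.063).

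Dppa3 (1424295_at) encodes a chromatin-bound protein that shields maternal DNA methylation in the zygote. Its growing intensities were 248, 386 and 176 in KO cells, against 590, 535 and 383 in WT cells. At 2 h they were 254, 380 and 214 in KO cells, against 473, 443 and 375 in WT cells. At 24 h they were 203 and 224 in KO cells, against 262 and 318 in WT cells. In growing cells and at 2 h KO replicate 2 reached the lowest WT array, and at 24 h the groups did not overlap. The averaged log2 change was -0.64 ± 0.14 (limma adjusted p = 0.0151). It passed in all 26 alternative analyses. Without the 4 arrays of high trophectoderm signal, which left 1 array per genotype at 24 h, it was -0.59 and did not pass. In the single states the change for growing cells was -0.90 ± 0.23 (adjusted p = 0.122), the 2 h change -0.61 ± 0.23 (adjusted p = 0.224) and the 24 h change -0.41 ± 0.28 (adjusted p = 0.69). All 5 differences within runs were negative: -1.20 and -1.06 in growing cells, -0.76 and -0.76 at 2 h and -0.48 at 24 h. With the hybridisation run as a block the change in growing cells was -1.05 (limma adjusted p = 0.000584) and that at 2 h was -0.73 (adjusted p = 0.0108), so each passed there. Leaving out KO growing replicate 2 brought the growing value to -1.18 (limma adjusted p = 0.0318).

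The Klf factors did not share a direction. Klf2 (1448890_at) had growing intensities of 676, 646 and 686 in KO cells, against 771, 1258 and 822 in WT cells. At 2 h they were 672, 391 and 606 in KO cells, against 1091, 736 and 930 in WT cells. At 24 h they were 578 and 415 in KO cells, against 517 and 677 in WT cells. KO arrays lay below WT arrays in growing cells and at 2 h, and the groups overlapped at 24 h. The averaged log2 change was -0.48 ± 0.13 (limma adjusted p = 0.0403), while the growing value (-0.46), the 2 h value (-0.73, adjusted p = 0.126) and the 24 h value (-0.26) did not pass. The differences within runs were -0.19 and -0.25 in growing cells, -0.13 and -0.60 at 2 h and -0.69 at 24 h. This call was lost in 12 of the 26 alternative analyses: without a filter, without an intensity trend, without the second hybridisation day, and on leaving out WT growing replicate 2, WT 2 h replicate 1 or 3, WT 24 h replicate 2, any KO growing replicate, KO 2 h replicate 2 or KO 24 h replicate 2. The limma adjusted p in those ranged up to 0.133 and the change from -0.56 to -0.41 over all 26. WT growing replicate 2, the highest array for Klf2 (1258), is 1 of the 4 arrays of high trophectoderm signal. Without those 4 the averaged change was -0.32 (limma adjusted p = 0.213), and the part of the cells these markers stand for was not tested.

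Klf4 was higher in KO cells on 1 of its 2 probe sets. With 1417395_at the growing intensities were 362, 349 and 348 in KO cells, against 203, 273 and 184 in WT cells. At 2 h they were 365, 325 and 303 in KO cells, against 237, 287 and 229 in WT cells. At 24 h they were 429 and 324 in KO cells, against 250 and 309 in WT cells. KO arrays lay above WT arrays in each state. The averaged log2 change was 0.48 ± 0.09 (limma adjusted p = 0.00602). The change for growing cells was 0.66 ± 0.15 (adjusted p = 0.0742), the 2 h change 0.38 ± 0.15 (adjusted p = 0.248) and the 24 h change 0.40 ± 0.18 (adjusted p = 0.505). The averaged call was lost in 1 of the 26 alternative analyses, without the second hybridisation day (0.45, limma adjusted p = 0.0637). The growing value passed when the run was a block (0.75, adjusted p = 0.00544) and without WT growing replicate 2 (0.82, adjusted p = 0.0285), as it did without the 4 arrays of high trophectoderm signal (0.82, adjusted p = 0.0126). The differences within runs were 0.79 and 0.87 in growing cells, 0.33 and 0.38 at 2 h, and 0.07 at 24 h.

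The brighter Klf4 probe set, 1417394_at, gave an averaged change of 0.29 ± 0.13 (limma adjusted p = 0.218), so the 2 probe sets differ on the call though not in sign. At 24 h this probe set read 860 and 409 in the 2 KO arrays, against 387 and 586 in the WT arrays, and without KO 24 h replicate 2 the averaged change was 0.46 (adjusted p = 0.0207). Without the 4 arrays of high trophectoderm signal it was 0.60 (limma adjusted p = 0.00313), and so passed. The pair of arrays hybridised together at 24 h, both of them among those 4 arrays, had the opposite sign, -0.50. Over the 16 arrays the 2 Klf4 probe sets had a Pearson correlation of 0.73, which was 0.80 after group means were removed.

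Klf5 read 919, 1043 and 1200 in growing KO cells, against 599, 1044 and 718 in growing WT cells, with probe set 1451021_a_at. At 2 h it read 982, 813 and 1250 in KO cells, against 936, 908 and 725 in WT cells, and at 24 h 1119 and 1191 in KO cells, against 851 and 886 in WT cells. The groups overlapped in growing cells and at 2 h and not at 24 h. The averaged change was 0.36 ± 0.11 (limma adjusted p = 0.082), and it passed without WT growing replicate 2 (0.43, adjusted p = 0.0206). The dimmer probe set 1451739_at gave 0.34 ± 0.14 (adjusted p = 0.18). Klf5 did not pass on either probe set.

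**Figure D2:**
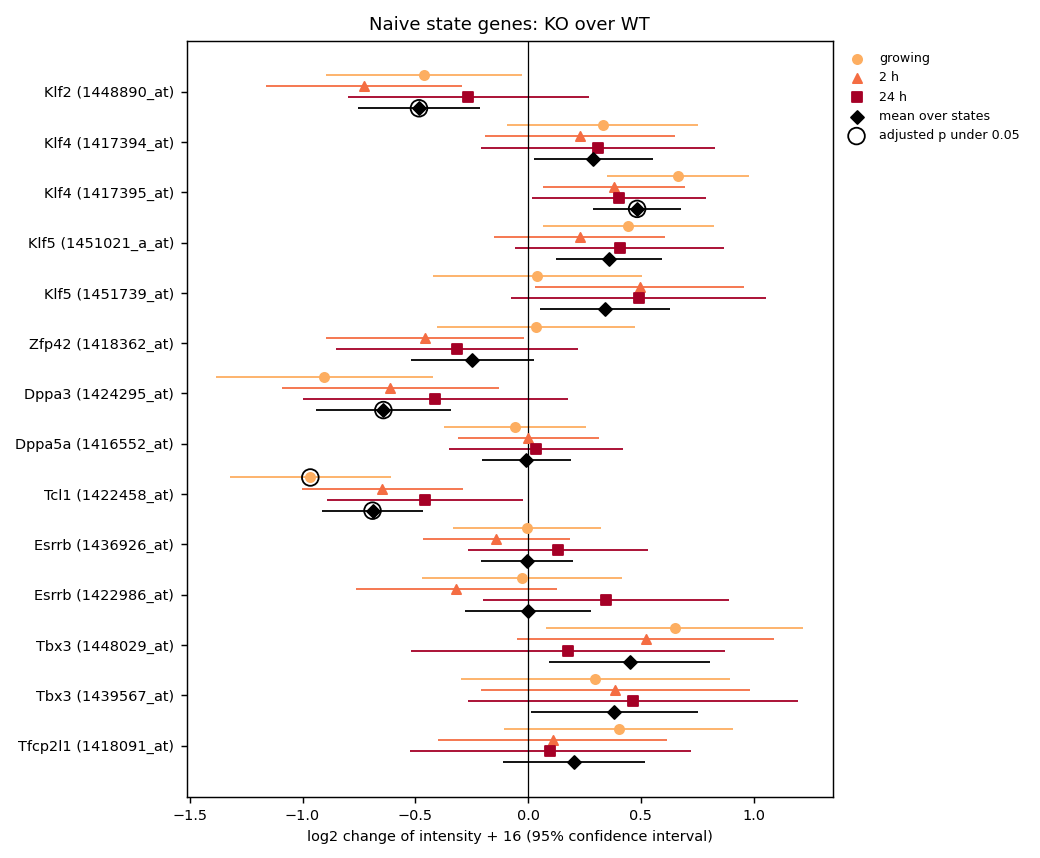
Log2 change, KO over WT, with its 95% confidence interval for each of the 14 tested probe sets (rows), with a symbol for each of the 3 states and 1 for their average. Circled values have an adjusted p under 0.05: Tcl1 in growing cells (-0.97) and, averaged, Tcl1, Dppa3, Klf2 and Klf4 (1417395_at).

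The other transcription factors gave no call between genotypes. Tbx3, a T-box factor, read 246, 154 and 285 in growing KO cells, against 148, 161 and 103 in growing WT cells (1448029_at). At 2 h it read 217, 132 and 228 in KO cells, against 140, 157 and 88.6 in WT cells, and at 24 h 356 and 159 in KO cells, against 210 and 209 in WT cells. KO replicate 2 lay within or below the WT range in each state, while the other KO arrays lay above it. The averaged change was 0.45 ± 0.17 (limma adjusted p = 0.148). It passed when the run was a block (0.56, adjusted p = 0.0124) and without KO 24 h replicate 2 (0.63, adjusted p = 0.0453), and the growing value also passed with the block (0.93, adjusted p = 0.031). Within runs the differences were 0.67 and 1.33 in growing cells, 0.43 and 1.22 at 2 h, and -0.36 at 24 h. Both arrays of that 24 h pair were among the 4 of high trophectoderm signal. The second, dim Tbx3 probe set (1439567_at, 10.1 to 56.9 on all arrays) gave 0.38 ± 0.18 (adjusted p = 0.252).

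Esrrb, an orphan nuclear receptor, read 612, 545 and 685 in growing KO cells, against 594, 743 and 523 in growing WT cells (1436926_at), with the groups overlapping. At 2 h it read 560, 422 and 663 in KO cells, against 574, 663 and 557 in WT cells, also overlapping. At 24 h it read 565 and 512 in KO cells, against 486 and 491 in WT cells, without overlap (0.13, limma adjusted p = 0.87). The dimmer Esrrb probe set, 1422986_at, had no overlap at 2 h, with 194, 162 and 210 in KO cells against 243, 227 and 243 in WT cells (-0.32, limma adjusted p = 0.503), nor at 24 h, with 200 and 162 in KO cells against 120 and 160 in WT cells (0.34, adjusted p = 0.724). Neither probe set passed in any state. The averaged Esrrb difference had a 95% confidence interval from -0.21 to 0.20 on 1436926_at and from -0.28 to 0.28 on 1422986_at. Tfcp2l1, a grainyhead-family factor, read 425, 367 and 486 in growing KO cells, against 336, 464 and 202 in growing WT cells (1418091_at), and its averaged change was 0.20 ± 0.15 (limma adjusted p = 0.512). Zfp42, a zinc finger protein widely used to mark ES cells, read 159, 142 and 131 in growing KO cells, against 211, 133 and 96.0 in growing WT cells. At 2 h Zfp42 read 116, 101 and 98.1 in KO cells, against 205, 131 and 126 in WT cells, with no overlap, and at 24 h 124 and 93.2 in KO cells, against 132 and 144 in WT cells, also with no overlap. Zfp42 had a growing change of 0.03, a 2 h change of -0.46 (adjusted p = 0.313) and a 24 h change of -0.32 (adjusted p = 0.744). Its averaged change was -0.25 ± 0.13 (adjusted p = 0.323). Dppa5a, an RNA-binding protein with a KH domain, read 3775, 3942 and 4923 in growing KO cells, against 3956, 4167 and 5030 in growing WT cells, with an interval of -0.20 to 0.19 for the averaged change.

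**Figure D3:**
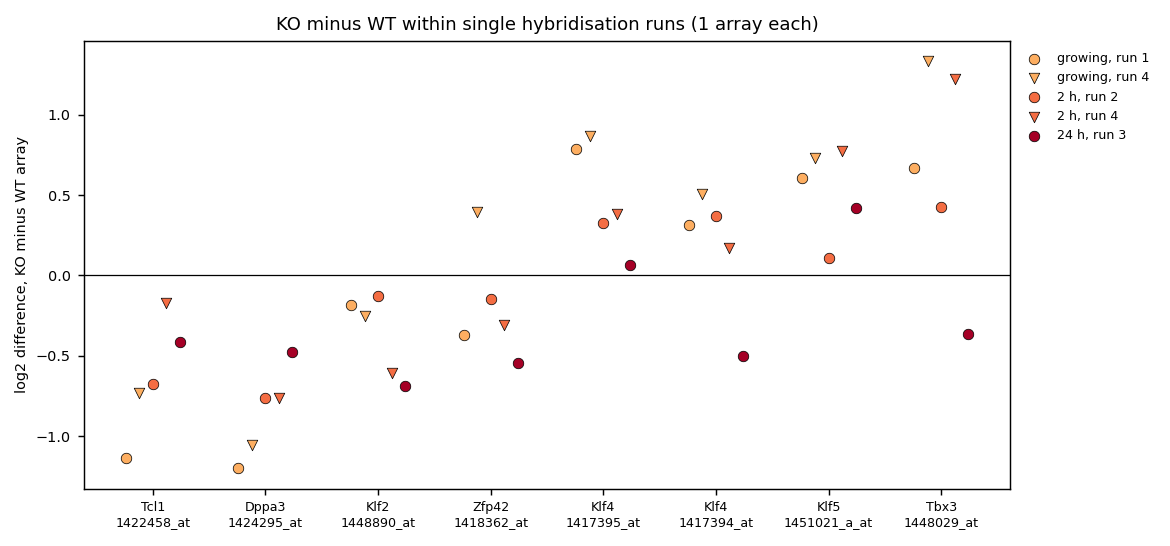
Log2 difference, KO minus WT, between single arrays hybridised in the same run (growing cells in runs 1 and 4, 2 h in runs 2 and 4, 24 h in run 3) for 8 probe sets. All 5 points are below 0 for Tcl1, Dppa3 and Klf2 and above 0 for Klf4 (1417395_at) and Klf5, and for Tbx3 and the other Klf4 probe set the 24 h point lies below 0. Both arrays of the 24 h point and the WT array of the 2 h point in run 2 are among the 4 of high trophectoderm signal.

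RefSeq promoters of assembly GRCm38.p6, from 250 bases before to 50 bases after a start site, were given for 6 of the 10 genes (7 promoters). Those of the 3 called genes among them are shown, with that of Zfp42 for comparison, because Klf2, Tcl1 and Klf4 did not move the same way. Capitals mark matches on either strand to the octamer ATTTGCAT (the kind of site that Oct4 binds), to CACCC and to the GC box GGGCGG, both of the kind that Klf factors bind. GC boxes may share a base with each other, and no CACCC match overlapped a GC box.
Klf2, chr8:72318812-72319111, plus strand: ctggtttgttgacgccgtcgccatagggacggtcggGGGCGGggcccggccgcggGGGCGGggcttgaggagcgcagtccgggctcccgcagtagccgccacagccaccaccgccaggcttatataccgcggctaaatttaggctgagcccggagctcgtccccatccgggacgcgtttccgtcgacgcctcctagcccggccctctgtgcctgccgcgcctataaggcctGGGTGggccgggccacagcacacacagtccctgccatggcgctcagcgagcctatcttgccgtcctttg
Tcl1, chr12:105222688-105222987, minus strand: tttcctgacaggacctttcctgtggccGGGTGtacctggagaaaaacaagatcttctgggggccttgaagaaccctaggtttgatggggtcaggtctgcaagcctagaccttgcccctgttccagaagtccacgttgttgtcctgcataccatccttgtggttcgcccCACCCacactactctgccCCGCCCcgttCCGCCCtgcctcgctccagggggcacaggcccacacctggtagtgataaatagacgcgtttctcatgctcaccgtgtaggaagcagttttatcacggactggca
Klf4, chr4:55532426-55532725, minus strand: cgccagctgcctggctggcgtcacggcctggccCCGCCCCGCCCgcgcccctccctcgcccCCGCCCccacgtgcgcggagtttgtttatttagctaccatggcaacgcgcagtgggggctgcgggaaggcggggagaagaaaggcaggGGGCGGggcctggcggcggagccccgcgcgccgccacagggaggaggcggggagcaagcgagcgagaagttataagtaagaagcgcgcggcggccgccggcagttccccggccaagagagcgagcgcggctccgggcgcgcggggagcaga
Zfp42, chr8:43306960-43307259, minus strand: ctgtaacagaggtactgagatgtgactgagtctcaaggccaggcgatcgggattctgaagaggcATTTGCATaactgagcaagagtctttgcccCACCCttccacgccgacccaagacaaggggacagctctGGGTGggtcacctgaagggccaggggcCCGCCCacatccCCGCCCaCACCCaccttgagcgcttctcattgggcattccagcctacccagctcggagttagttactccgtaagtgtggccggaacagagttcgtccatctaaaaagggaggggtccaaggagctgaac
The Klf2 promoter held 1 CACCC match and 2 GC boxes, that of Tcl1 2 and 2, that of Zfp42 3 and 2, and that of Klf4 0 and 4. CACCC is in 57.5% and the GC box in 35.7% of the 32851 promoters in the table. The octamer, held by 1.74% of all promoters, was in that of Zfp42 and in none of the other 6, at position -186 from the start. The STAT motif TTCNNNGAA was in 1 of the 2 Esrrb promoters and is in 8.3% of all promoters. The estrogen-related receptor motif TCAAGGTCA was in none of the 7 and is in 0.423% of all promoters. These matches describe letters in a window, and no binding was measured.

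Other genes of the naive state and its pathways, taken from lists by function, also moved in more than 1 direction. The counts below are of genes called between KO and WT averaged over states, where 4.13% of all probe sets were called. The lists, too, were chosen with earlier results of these data known. Among 12 measured core pluripotency factors 1 was higher in KO cells and 1 lower. Nanog, the homeobox factor upstream of Esrrb, was lower (-0.47 ± 0.10, limma adjusted p = 0.0139), with 557 ± 44.3 in growing KO cells and 753 ± 107 in growing WT cells (SD, n = 3 each). Mybl2, a cell-cycle transcription factor, was higher (0.37, adjusted p = 0.0052), whereas Pou5f1 did not pass (0.10, adjusted p = 0.54). Of 17 other naive state genes, Rhox5 (0.68) and Gbx2 (0.61), homeobox genes, were higher and Rhox9 (-0.70), another homeobox gene, was lower. Of 16 genes of the LIF and STAT3 pathway, Stat3 itself (0.34, adjusted p = 0.0235), Myc (0.47) and Mcl1, an inhibitor of cell death (0.34), were higher, while Pim2, a survival kinase, was lower (-0.49, adjusted p = 0.0493).

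Of 19 epiblast and priming genes, 4 were higher in KO cells and 1 was lower. Dnmt3a, a de novo DNA methyltransferase, was higher (1.15 ± 0.21, limma adjusted p = 0.00321), as were Otx2 (0.83, adjusted p = 0.0015), Pou3f1 (0.49) and Foxd3 (0.46), transcription factors of the early epiblast. Lefty1, a Nodal inhibitor, was lower (-0.84, adjusted p = 0.0151). Of 16 genes of the Akt pathway, in which Tcl1 acts, 1 passed, a share near the background. This was Eras, which was lower (-0.42, adjusted p = 0.0222); Eras encodes an ES cell Ras protein that activates PI3 kinase. The median change was 0.05 for the core factors, -0.07 for the other naive state genes and -0.06 for the LIF and STAT3 pathway. It was 0.05 for the priming genes and 0.10 for the Akt pathway, against 0.01 over all genes. The summed intensity of 16 primitive endoderm markers was 1867 to 1950 on KO growing arrays and 1146 to 1702 on WT growing arrays, without overlap. It was 1634 to 1988 in KO cells and 1148 to 1801 in WT cells at 2 h, and 2311 to 2810 in KO cells and 1897 to 2419 in WT cells at 24 h. Over all arrays the brightest of these markers were Sparc (423 to 1122), Lamc1 (192 to 489) and Lamb1 (116 to 342). Gata6, Gata4, Sox17 and Sox7 reached at most 52.2 and add little to the sum. Whether the cells these markers stand for have a part in the lower Tcl1, Dppa3 and Klf2 values was not tested.

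**Figure D4:**
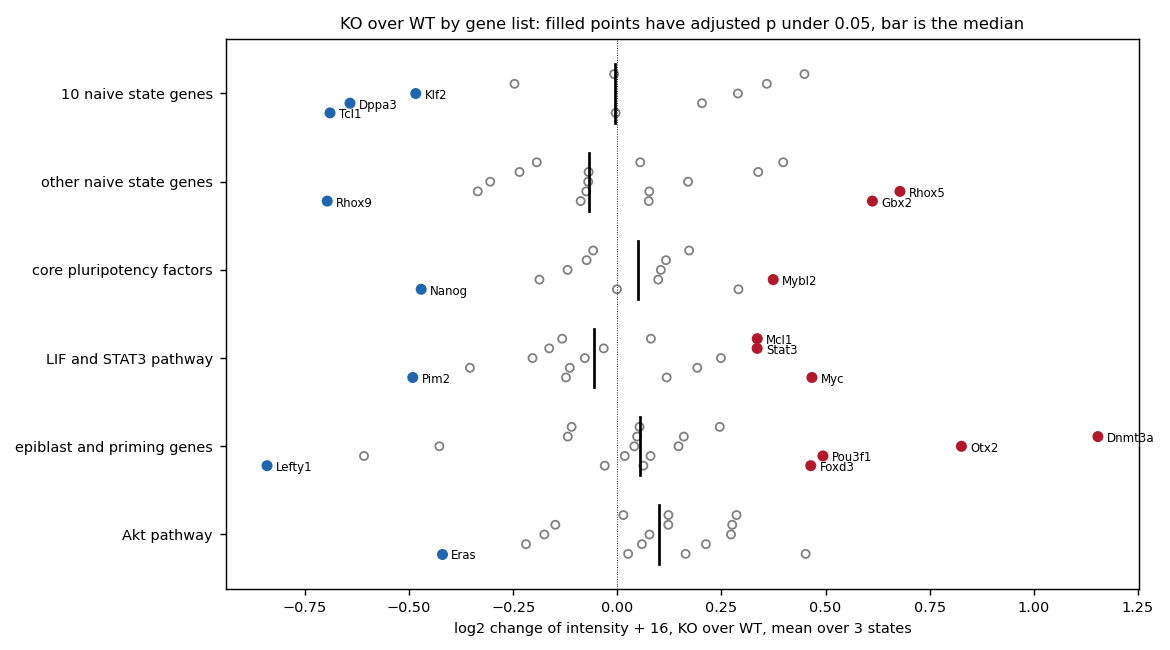
Log2 change, KO over WT averaged over the 3 states, for each gene (point) of the 10 naive state genes and of 5 lists by function, at the gene's brightest tested probe set. Filled points have an adjusted p under 0.05 and are named, and bars are list medians, from -0.07 to 0.10. Klf4 is open because its called probe set is the dimmer one.

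At 2 h after irradiation no naive state gene was called against growing cells. In KO cells the 14 changes from growing cells ran from -0.40 (Zfp42) to 0.21 (Tcl1), and in WT cells from -0.33 (Klf5, 1451739_at) to 0.24 (Esrrb, 1422986_at). No probe set of the 14 passed in limma in either genotype. The background was 0.107% of all probe sets in KO cells and 0.147% in WT cells.

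At 24 h, averaged over genotypes, Klf2 and Tcl1 were lower than in growing cells and Klf5 was higher on 1 of its 2 probe sets. These 3 of 14 are 21.4%, and 21% of all probe sets passed in the same comparison, so the naive state genes were called about as often as probe sets in general. In WT cells 1 of 14 passed (Tcl1), against 8.61% of all probe sets, and in KO cells 0 of 14 passed, with 1 at an unadjusted p under 0.05, against 8.02%. The median of the 10 genes was -0.15 in KO cells and -0.02 in WT cells, while the median over all genes was 0.11 in KO cells and 0.04 in WT cells. Quantile scaling moves the median of all probe sets in the KO comparison to -0.01 where it was 0.11.

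Klf2 was lower at 24 h, with an averaged change of -0.54 ± 0.16 (limma adjusted p = 0.0253). Without the 4 arrays of high trophectoderm signal, which leave 1 array per genotype at 24 h, assumed to vary like the other groups, none of the 14 passed: the averaged values were -0.41 for Klf2 (limma adjusted p = 0.102), -0.22 for Tcl1 (adjusted p = 0.425) and 0.54 for Klf5 (1451739_at, adjusted p = 0.145), and that of Tcl1 in WT cells was -0.44 (adjusted p = 0.351). On all 16 arrays the log2 changes of Klf2 were -0.44 in KO cells (limma adjusted p = 0.249) and -0.64 in WT cells (adjusted p = 0.0998). For Klf2 the arrays at 24 h lay below the growing arrays in each genotype. Klf2 was thus called only in the average over genotypes. The call was lost with quantile scaling (-0.44, limma adjusted p = 0.0742), without the second hybridisation day (-0.57, adjusted p = 0.0665), and without WT growing replicate 2, WT 24 h replicate 1 or KO 24 h replicate 2, with adjusted p up to 0.124. Within runs the difference was -0.62 in KO cells and -0.56 in WT cells. Without the 2 arrays of high 18S signal the WT value passed (-0.77, limma adjusted p = 0.0452).

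Tcl1 was lower at 24 h than in growing cells in the WT genotype (-0.64 ± 0.19, limma adjusted p = 0.043), with 131 and 101 at 24 h against 223, 199 and 149 in growing cells. In KO cells, with 87.6 and 72.2 at 24 h against 83.2 to 92.9 in growing cells, the change was -0.13 ± 0.19 (adjusted p = 0.715). The test of this difference between genotypes gave 0.51 (limma adjusted p = 0.996), so the responses are not shown to differ. The averaged change was -0.38 ± 0.13 (adjusted p = 0.0494). The WT call was lost in 12 of 26 alternative analyses: with no filter, with no trend, without the 2 arrays of high 18S signal, and on leaving out KO 2 h replicate 1, any KO growing replicate, WT growing replicate 1 or 2, WT 2 h replicate 2 or either WT 24 h replicate, with limma adjusted p up to 0.246. The averaged call was lost in 15 of 26. These were an added constant of 1, the same 3 settings, and the omission of KO 2 h replicate 1 or 3, any KO growing replicate, either KO 24 h replicate, WT growing replicate 1 or 2, WT 2 h replicate 2 or WT 24 h replicate 2, with limma adjusted p up to 0.176. Dppa3 had changes of -0.25 in KO cells and -0.74 ± 0.26 in WT cells (adjusted p = 0.0789), and an averaged change of -0.50 (adjusted p = 0.0579). With the run as a block that of WT cells (-1.10, limma adjusted p = 0.000306) and the average (-0.76, adjusted p = 0.000101) passed. The average also passed without the second hybridisation day (-0.71, limma adjusted p = 0.00732) and without KO growing replicate 3 (-0.63), KO 2 h replicate 2 (-0.50) or WT growing replicate 3 (-0.59). The WT change passed without the second day (-0.92, limma adjusted p = 0.0313) and without KO growing replicate 2 (adjusted p = 0.043).

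Klf5 on 1451739_at read 155 and 146 at 24 h against 69.1, 88.6 and 94.7 in growing KO cells, and 113 and 93.0 at 24 h against 108, 66.0 and 72.9 in growing WT cells. The arrays at 24 h lay above the growing arrays in KO cells and overlapped them in WT cells. The changes were 0.74 ± 0.25 in KO cells (limma adjusted p = 0.0713), 0.29 ± 0.25 in WT cells (adjusted p = 0.527) and 0.52 ± 0.17 on average (adjusted p = 0.0414). The averaged call was lost in 14 of 26 alternative analyses, among them quantile scaling (0.45), the run block (0.45) and the omission of KO growing replicate 1 or 2, either KO 24 h replicate, WT growing replicate 2 or 3, or either WT 24 h replicate, with limma adjusted p up to 0.146. The KO change passed with an added constant of 64 (adjusted p = 0.0462) and without WT 2 h replicate 1 (0.0384) or 3 (0.0443). The brighter Klf5 probe set gave an average of 0.16 (adjusted p = 0.478). Klf4, Zfp42, Esrrb, Tbx3, Tfcp2l1 and Dppa5a did not pass at 24 h in either genotype or on average. With the run as a block, Tbx3 passed in WT cells (0.92, limma adjusted p = 0.0141) and on average (0.47, adjusted p = 0.0403), as did Dppa5a on average (0.36, adjusted p = 0.0308). Esrrb (1422986_at) passed in WT cells without WT growing replicate 1 (-0.74, limma adjusted p = 0.0492).

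**Figure D5:**
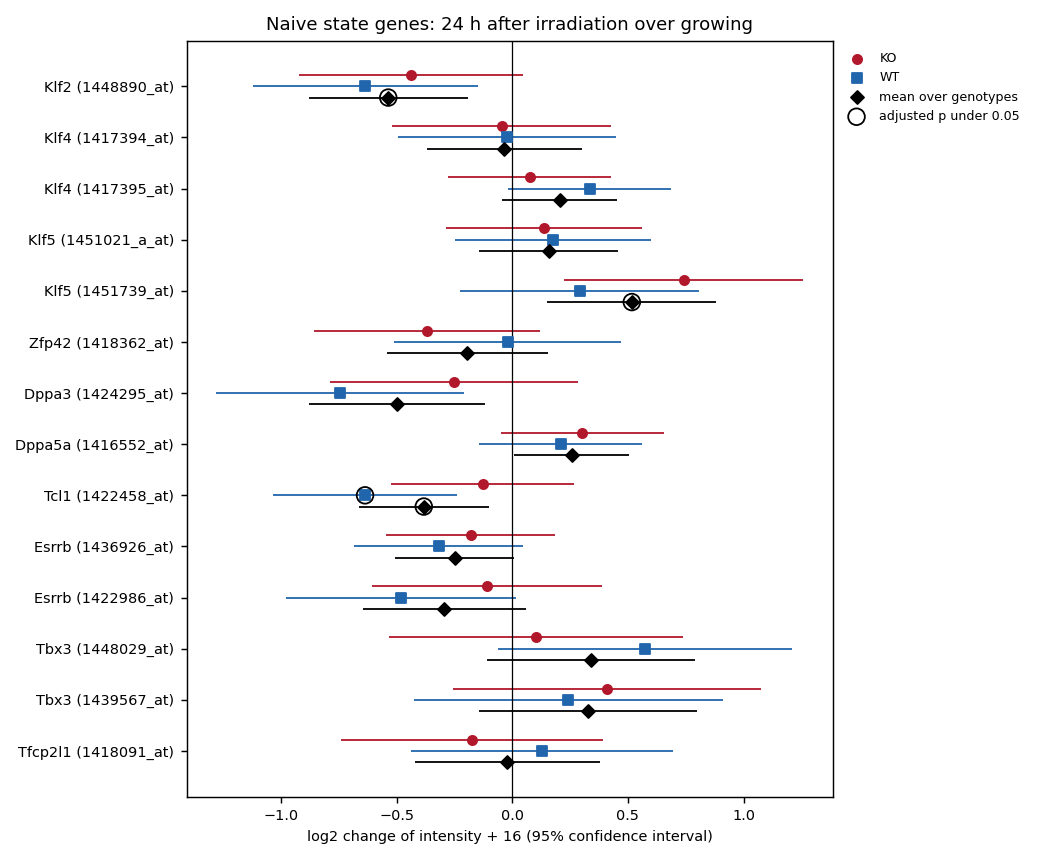
Log2 change, 24 h after irradiation over growing, with its 95% confidence interval for each of the 14 tested probe sets in KO cells, in WT cells and averaged over genotypes. Circled values have an adjusted p under 0.05: Tcl1 in WT cells (-0.64) and, averaged, Klf2 (-0.54), Tcl1 (-0.38) and Klf5 (1451739_at, 0.52).

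Other pluripotency genes were also called at 24 h, where 21% of all probe sets passed on average over genotypes. In that average 6 of 12 core factors were lower and 1 was higher, among them Lin28a, an RNA-binding protein (-1.26 ± 0.14, limma adjusted p = 8.76e-06), Utf1 (-0.73), Sall4 (-0.71) and Pou5f1 (-0.48, adjusted p = 0.0017). Of the 17 other naive state genes 3 were lower, Nr0b1, a nuclear receptor (-1.20, adjusted p = 1.6e-06), Gdf3, a TGF-beta family ligand (-0.94), and Fbxo15 (-0.41), and 2 were higher. Of 16 genes of the LIF and STAT3 pathway 2 were lower, Pim2 (-1.68, adjusted p = 4.25e-06) and Socs2 (-0.99), and 2 were higher, Jak1 (0.50) and Jak2 (0.47), a share near the background. Of the 16 Akt pathway genes 3 were higher, Foxo3 (1.24, adjusted p = 0.000206) and Foxo1 (0.54), factors that Akt restrains, and Inpp5d (0.75), and 1 was lower, Eras (-0.67), again a share near the background. Of the 19 priming genes 3 were higher and 5 lower, Dnmt3b (-1.05, limma adjusted p = 0.000562) and Dnmt3a (-0.96) among the lower. The highest change on this list, 1.39, was also the highest among the trophectoderm markers, and Krt18 is on both lists. The summed ES cell markers were 4352 to 4770 in KO cells at 24 h, against 5946 to 6731 in growing KO cells, and 4586 to 4725 in WT cells at 24 h, against 5420 to 5809 in growing WT cells. Whether the lower ES cell markers and the Klf2 and Tcl1 values go together was not tested.

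No naive state probe set was shown to respond differently in the 2 genotypes. At 2 h and at 24 h the test of the difference called 0 of 14, with 0 at an unadjusted p under 0.05 in limma, and it called 0% of all probe sets at each time, so the absence of a call says little. The largest size among the 14 at 24 h was that of Tcl1 (0.51, 95% confidence interval -0.05 to 1.07, limma adjusted p = 0.996), and at 2 h that of Zfp42 (-0.49, adjusted p = 0.606).

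Over the 16 arrays the members fell into partly opposed profiles, described here by Pearson correlations of log2 values, in which arrays share groups and runs. Dppa3 and Tcl1 had a correlation of 0.78, which was 0.11 once group means were removed, and Klf2 and Tcl1 had 0.73, which was 0.27 after that step. Klf4 (1417395_at) and Tcl1 had -0.73, which was 0.28 after it. Klf4 (1417395_at) and Tbx3 (1448029_at) had 0.74 and kept 0.57 within groups. Among all genes outside the list, those with the profile most like Tcl1 were Ebp, a sterol isomerase gene (0.87), and Gins1, a DNA replication gene (0.86). Those most like Dppa3 were Trim2 (0.91) and Serpinb6a (0.88), and those most like Klf2 were Msrb2 (0.86) and Slc7a6 (0.85). Dppa5a was most like the ribosomal protein genes Rps2 (0.93) and Rps29 (0.92), and Tfcp2l1 was most like Lama1 (0.88), a laminin gene that is also on the primitive endoderm list. For the other genes the highest correlations were 0.77 for Klf4 (Dnajc14), 0.87 for Klf5 (Lrrfip2), 0.80 for Zfp42 (Cpsf3), 0.79 for Esrrb (Guk1) and 0.89 for Tbx3 (Copa). These values were picked as the highest over all genes outside the list, on 16 arrays, so their size carries little weight.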

How the data were processed

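Total RNA of 16 samples was hybridised to 1 Affymetrix mouse array (M430A) each, per the labels. The authors deposited linear intensities, all above 0, for each probe set on each array. Their mean after trimming 2% at each end was 100 on every array, so arrays had been scaled alike. How probes were summarised, and with which software, was not given in the sources used here. Instrument files, whose other entries carry no expression value, served to sort arrays into 4 runs. Probe sets were named through the platform annotation, and only those with a single symbol. For the gene inactivated in KO cells no value is reported here, and the genotypes are those of the labels.

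Log2(intensity + 16) was fitted in R 4.3.3 with limma 3.58.1, as 6 group means over all 16 arrays, with an intensity trend in the variance. A probe set was tested where a group mean exceeded the 30th percentile of all values. The residual degrees of freedom were 10, so the number of arrays limits the precision. The same steps were tested on simulated data. The members and lists were chosen with earlier results of these data known. Genes named from the lists were drawn from the 3 brightest of each list and those called, and at 24 h not every called gene is named. Genes alike in profile are the 2 with the highest correlation. Alternatives were added constants of 1 and 64, quantile normalization, no filter and a filter at the 50th percentile, run and replicate blocks, no trend, and omission of arrays.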

Additional observations from a re-analysis of the deposited data

How the results depend on the processing

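Of the 9 probe set changes called, 2 (Dppa3 and Tcl1 averaged over states) passed in all 26 alternative analyses, and none of the 9 changed sign in any of them. Without the 4 arrays of high trophectoderm signal, chosen after seeing the data, the averaged Dppa3 and Klf2 differences, Tcl1 in growing cells and the 4 calls at 24 h did not pass. The counts were then 0 for 24 h against growing in WT cells and 0 averaged over genotypes. Of the 145 changes not called, 63 changed sign in at least 1, so their signs carry little weight. The count of called probe sets between KO and WT in growing cells (1) was 4 with the hybridisation run as a block, 0 without the 2 arrays of high 18S signal and 0 without the second hybridisation day, and 0 to 1 when 1 array was left out. At 2 h (0) it was 1 with the run block. Averaged over states (4) it was 2 without the second day and 3 to 5 with 1 array left out. For 24 h against growing in WT cells (1) it was 3 with the run block, 2 without the second day, 0 with no filter, 0 with no intensity trend, and 0 to 1 with 1 array left out. In KO cells (0) it was 1 with an added constant of 64, and 0 to 1 with 1 array left out. Averaged over genotypes (3) it was 5 with the run block, 1 with an added constant of 1, 1 with quantile normalization, 1 with no filter, 1 with no intensity trend, and 0 to 4 with 1 array left out. The cause of these shifts was not tested.

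Same-numbered arrays deviated together from their group means more than others did: their correlation had a median of 0.12 over 36 pairs, with 21 above 0.1, against -0.06 over 70 pairs of other numbers, with 1 above 0.1, and on average each of the 16 arrays correlated more with those of its own number. This is a hint from the data and not from the labels. Deviations from a group mean cancel within the group, so these pairs are not independent. Replicate number also partly coincided with run: every replicate 3 was in run 4, and replicate 1 of every WT group in run 1. As the correlation ran from -0.09 to 0.29 and not every pair was above 0.1, the replicate block was kept as an alternative. With 3 pairs, each was above 0.1 for WT 2 h against growing alone, where the block left the count at 0. With the replicate block the count of called probe sets was 3 between KO and WT in growing cells, where Dppa3 (limma adjusted p = 0.00552) and Klf4 (1417395_at, 0.0344) joined Tcl1, and 1 at 2 h (Tcl1, 0.0421). It was 2 for 24 h against growing in WT cells, with Dppa3 (-0.92, limma adjusted p = 0.00232). Averaged over genotypes it was 4 at 24 h: Dppa3 (-0.67, limma adjusted p = 0.000847) and Dppa5a (0.33, adjusted p = 0.0245) passed, and Klf5 (1451739_at, 0.42, adjusted p = 0.0769) did not.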
